A study of Mus musculus with 447 samples.

Results

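The 2 mouse insulin genes, Ins1 and Ins2, and 3 genes known from the beta cell, Slc30a8, Gad1 and Sytl4, were followed cell by cell in fetal pancreas. The 5 genes were chosen by name from the 40824 genes of the count matrices, and all 5 have a row in both matrices. Single GFP+ cells were sorted at E15.5, 1 per well, and their polyadenylated RNA was read by Smart-seq3, a method that covers transcripts along their length. Of 447 cells, 212 carried the genotype Pdx1CreNeurod1OE, here called Neurod1OE, and 235 the genotype Pdx1CreNgn3KONeurod1OE, here called Ngn3KO.

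Both genotypes share the Pdx1 driver of Cre and the overexpression of Neurod1, a helix-loop-helix activator of endocrine genes, and they differ in the loss of Ngn3 (Neurog3), the factor that normally starts the endocrine programme. The series text gives the driver as Pdx1CreER and the lost gene as a floxed allele, Ngn3fl. Pdx1 marks the early pancreatic epithelium, so acinar, duct and endocrine descendants can all carry the transgene. Sample titles also carry a 2 or a 3, called a set here, a number the sources used here do not explain. Set 3 holds 95 of the Neurod1OE and 30 of the Ngn3KO cells, and set 2 the other 322 cells. No animal or litter is named either, so each genotype was taken as 1 sample per set, no test between genotypes was possible, and every interval below covers counting error only. Wild-type cells were not analysed here.

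In the beta cell, Ins1 and Ins2 encode the 2 preproinsulins of rodents. Slc30a8 encodes ZnT8, the transporter that loads zinc into secretory granules, where insulin is stored as a zinc crystal, and alpha cells make it too. Gad1 encodes glutamate decarboxylase 67, which makes the transmitter GABA, and Sytl4 encodes granuphilin, a Rab27 effector that docks insulin granules at the plasma membrane. Gcg encodes proglucagon, the product of alpha cells.

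Ins1 lies on chromosome 19 (chr19:52264297-52265476, plus strand, mm10) with its whole coding sequence in 1 exon, whereas Ins2 on chromosome 7 (chr7:142678656-142743381, minus strand) has 2 coding exons. The other genes are Slc30a8 (chr15:52295553-52335798, plus strand), Gad1 (chr2:70553072-70602014, plus strand) and Sytl4 (chrX:133936385-133981812, minus strand), and none of the 5 shares an exon with another gene of the GENCODE M21 annotation. Because most results below rest on telling Ins1 reads from Ins2 reads, both coding sequences of that annotation are shown from base 1 to base 294 of Ins1 and to base 300 of Ins2, 5′ to 3′, with the bases that differ or have no partner in the alignment in capitals.
Ins1: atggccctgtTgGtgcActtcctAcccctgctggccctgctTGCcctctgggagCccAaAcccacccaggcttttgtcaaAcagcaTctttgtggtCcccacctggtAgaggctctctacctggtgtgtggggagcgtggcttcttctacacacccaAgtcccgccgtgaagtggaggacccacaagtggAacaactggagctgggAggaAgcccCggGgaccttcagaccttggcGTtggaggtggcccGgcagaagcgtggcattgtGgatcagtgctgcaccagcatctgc
Ins2: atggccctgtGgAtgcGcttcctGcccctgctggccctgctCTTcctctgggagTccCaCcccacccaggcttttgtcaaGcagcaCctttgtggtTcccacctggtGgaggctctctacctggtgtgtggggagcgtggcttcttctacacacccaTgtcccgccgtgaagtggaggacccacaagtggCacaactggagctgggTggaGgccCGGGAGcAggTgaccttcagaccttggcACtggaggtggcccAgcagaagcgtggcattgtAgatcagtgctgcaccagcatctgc
Over the whole coding sequences, 302 of 333 aligned positions were identical (90.7%), 25 were mismatches and 6 lay in gaps. The longest identical run was 56 bases, and none of the 228 windows of 100 bases in Ins1, the length of 1 read, occurred unchanged in Ins2, against 7 of 278 windows of 50 bases. A full-length coding read can therefore be placed on 1 of the genes, while the placement of shorter, trimmed reads between them is uncertain. The annotated transcripts differ in length, 1062 bases for Ins1 and 478 for Ins2, against coding lengths of 327 and 333, so shares of reads are not shares of molecules.

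NeuroD1 with its E proteins is known to bind E-boxes of the insulin promoters. The 250 bases before the annotated start of Ins1 (chr19:52264047-52264296, plus strand, GRCm38.p6, RefSeq) are shown with matches to CANNTG, the general E-box, in capitals.
Ins1 promoter: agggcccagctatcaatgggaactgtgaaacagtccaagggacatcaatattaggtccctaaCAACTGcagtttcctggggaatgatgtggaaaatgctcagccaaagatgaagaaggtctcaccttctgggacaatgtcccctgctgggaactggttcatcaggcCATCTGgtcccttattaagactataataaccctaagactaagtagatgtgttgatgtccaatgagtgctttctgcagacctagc
CANNTG matched this window 2 times on either strand and was present in 66.2% of 32851 promoters of that length. One match lies within the longer string GCCATCTG, found in 1.11% of promoters, and overlaps CATCTG, found in 14.4%. TAAT, the core of homeodomain sites such as those of Pdx1, matched 3 times (54.9% of promoters). In the same window of Gad1, CANNTG matched 1 time and TAAT 2 times, while neither was found for Sytl4. These matches are letters in a window, not measured sites. Ins2 and Slc30a8 were not among the promoters used.

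The cells of set 2 and set 3 were of different kinds, which bears on every comparison. The median total of set 2 was 572744 reads for Neurod1OE and 344128 for Ngn3KO, and that of set 3 was 695079 and 728074. In set 2 the median cell had 68811 counts per 1000000 reads (CPM) of Gcg in Neurod1OE and 84098 in Ngn3KO. In set 3 the median was 120.8 and 21.2 CPM of Gcg, and the cells labelled Ngn3KO had a median of 9999 CPM of Cpa1, a digestive enzyme of acinar cells. Of 16 acinar markers, 14 were measured in set 3 and all 14 were at least 2-fold higher in Ngn3KO, while all 9 pan-endocrine markers were at least 2-fold lower. In set 2 the 5 measured acinar markers were at least 2-fold lower in Ngn3KO and none of 10 alpha-cell markers was past 2-fold. Neurod1 itself was summed at 332 and 292 CPM in set 2, and at 217 and 30.4 CPM in set 3, so the cells labelled Ngn3KO in set 3 were low in the gene both genotypes overexpress. Neurog3 was at 0 in the median cell of each group, and the deleted part of the gene is not given, so its reads did not check the labels. In set 2, Neurod1OE had 64 female and 50 male cells by Xist and Y-linked reads, whereas no Ngn3KO cell was called male. A predicted gene, Gm12338, also divides set 2: all 50 male and 0 of the 64 female Neurod1OE cells had at least 10 CPM of it, and all but 97 Ngn3KO cells did. In set 3 all 30 cells labelled Ngn3KO were called male and none was Gm12338-positive. Neurod1OE there had 29 female and 66 male cells, and 71 Gm12338-positive and 24 Gm12338-negative cells. Genotype, sex and whatever Gm12338 marks can therefore not be told apart fully in either set. For set 2, results are given within the Gm12338 subsets where they differ.

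Insulin was detected at a low level in nearly every cell of set 2 and at a high level in very few. Ins1 ranged from 0 to 9174 CPM in Neurod1OE cells with a median of 15.46 CPM, and from 0 to 20895 CPM in Ngn3KO cells with a median of 17.6 CPM. Ins2 ranged from 0 to 2013 CPM with a median of 44.03 CPM in Neurod1OE, and from 0 to 130736 CPM with a median of 65.1 CPM in Ngn3KO. The genotypes overlapped over most of the range, and 4 Ngn3KO cells lay above every Neurod1OE value of Ins2. Below the top Ngn3KO also extended further up in Ins2, with upper quartiles of 131.9 and 275.5 CPM and at least 100 CPM in 28.2% of Neurod1OE and 40.5% of Ngn3KO cells. At least 10 CPM of Ins1 was present in 63.2% of Neurod1OE and 64.4% of Ngn3KO cells, and the same level of Ins2 in 86.3% and 89.8%.

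The zinc transporter gene Slc30a8 was spread more evenly. Its level ran from 0 to 853 CPM with a median of 67.6 CPM in Neurod1OE cells, and from 0 to 1229 CPM with a median of 73.1 CPM in Ngn3KO cells. At least 10 CPM was present in 75.2% (95% Clopper-Pearson interval 66.4 to 82.7%) and 76.6% (70.2 to 82.2%) of cells. Gad1 was at 0 in the median cell of both genotypes and reached 596 and 351 CPM, with at least 10 CPM in 28.2% of Neurod1OE and 23.9% of Ngn3KO cells. Sytl4 was the rarest: it reached 252 and 552 CPM, and 5.98% and 2.93% of cells had 10 CPM or more. With each cell thinned to 165298 reads, which leaves out 2 Neurod1OE and 31 Ngn3KO cells below that depth, the shares with 10 CPM were 60% and 67.8% for Ins1, 85.2% and 90.8% for Ins2, 73.04% and 78.7% for Slc30a8, 26.96% and 27.01% for Gad1, and 6.96% and 8.05% for Sytl4. The order of the genotypes in Sytl4 thus turned with depth, and none is read from it.

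**Figure D1:**
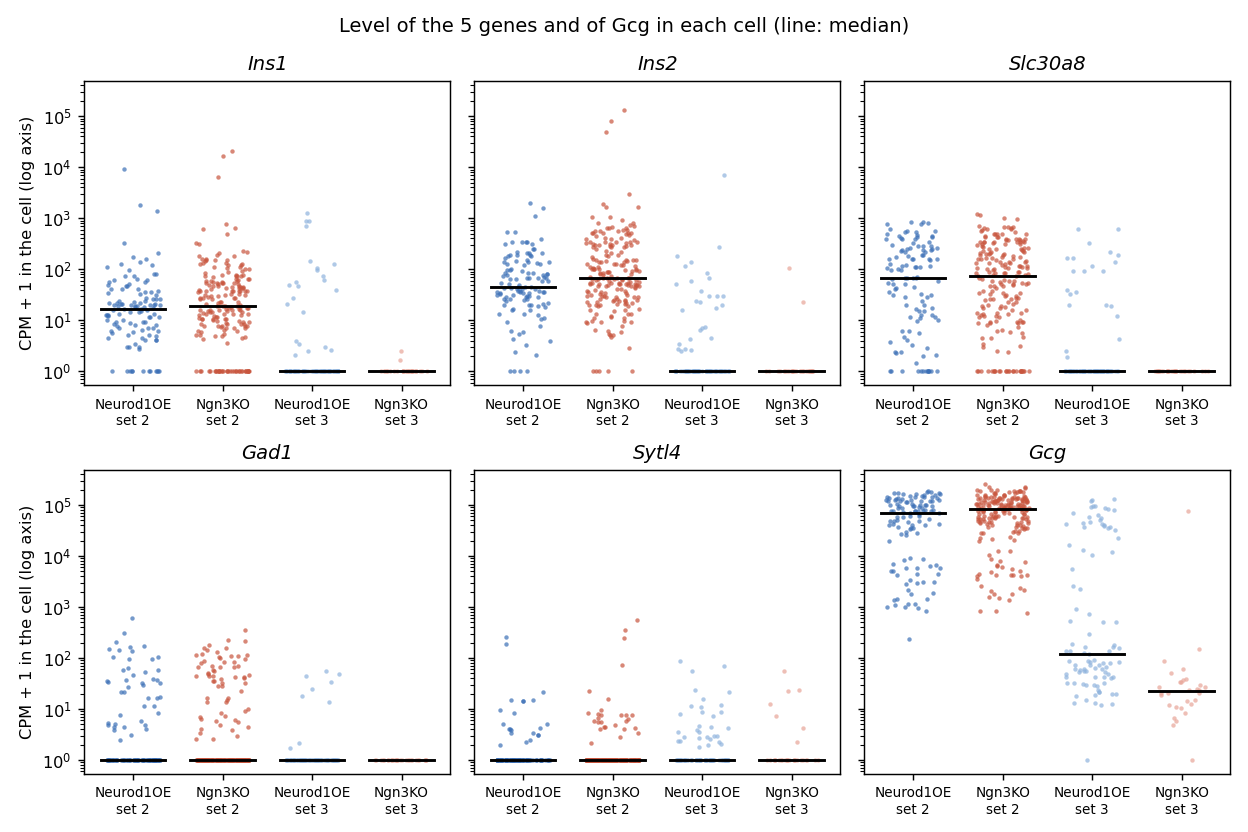
Each point is 1 cell, placed by its CPM + 1 on a log axis, for the 5 genes and Gcg in the 4 groups of genotype and set, with a line at the median. Ins1 and Ins2 show a broad low band in set 2 and a few separate cells at the top, up to 130736 CPM of Ins2 in Ngn3KO. In set 3 most cells lie at 0 for all 5 genes.

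In set 3 all 5 genes were at 0 in the median cell of both genotypes. Among Neurod1OE cells Ins1 reached 1250 CPM, Ins2 7076 CPM, Slc30a8 624 CPM, Gad1 54.4 CPM and Sytl4 86.1 CPM. At least 10 CPM was present for Ins1 in 17.9% of these cells, for Ins2 in 18.9%, for Slc30a8 in 20%, for Gad1 in 7.37% and for Sytl4 in 8.42%. Among the 30 cells labelled Ngn3KO, Slc30a8 and Gad1 had no read in any cell. With a floor of 3 counts taken for a count of 0, the share of the 30 cells with a read could be up to 10%. The upper Clopper-Pearson limit is 11.6%. Ins2 reached 104.2 CPM in 1 of these cells and Ins1 only 1.52 CPM. Sytl4 was the exception, with 10 CPM or more in 13.3% of them.

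Set 3 also gave a measure of the level these genes have where they are not known to be made. There, 44 cells had at least 1000 CPM of Cpa1 and less than 1000 CPM of Gcg, with a median total of 842262 reads. Among them, 2 (4.55%, interval 0.555 to 15.47%) had 10 CPM of insulin, taken as Ins1 and Ins2 summed, and none had 10 CPM of Slc30a8 or Gad1. Sytl4, in contrast, had 10 CPM in 5 of the 44 (11.4%, interval 3.79 to 24.6%), so its share of 8.42% over all Neurod1OE cells of set 3 was not above that acinar level. Gcg reads were in 43 of the 44 cells, at a median of 25.7 CPM. In set 2 only 7 of 322 cells had less than 1000 CPM of Gcg, and these were below 1000 CPM of Cpa1 as well. They were thus not of the Cpa1-high kind, and set 2 gave no such measure. All 7 had at least 10 CPM of insulin, at a median of 158.96 CPM. Among the set 2 cells with at least 1000 CPM of Gcg it was 94.6%, at a median of 85.68 CPM. The level measured in set 3 was therefore not taken as that of set 2.

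Summed over cells, the 2 insulin genes differed most among the 5 members between the genotypes of set 2. The summed level of Ins1 was 95.8 CPM for Neurod1OE (95% Poisson interval 93.6 to 98.1) and 781 CPM for Ngn3KO (775 to 787), and that of Ins2 was 153.1 CPM (150.3 to 155.9) and 4045 CPM (4031 to 4059). Expressed as the log2 ratio of Ngn3KO over Neurod1OE after adding 1 CPM, Ins1 was at 3.01 and Ins2 at 4.71. Sytl4 was at 2.14, from 3.65 and 19.5 CPM. Slc30a8 was at 143.1 CPM (140.4 to 145.8) in Neurod1OE and had an interval of 160.2 to 165.8 CPM in Ngn3KO, a log2 ratio of 0.19, and Gad1 at 28.7 and 23.7 CPM, a log2 ratio of -0.27. To count as measured, a gene needed 10 CPM in either genotype together with a read in 10% of that genotype's cells. By that rule 3 of the 5 were higher by 2-fold or more for Ngn3KO and none lower, where 0.859% of 10010 measured genes were higher, 1.67% lower and 2.53% past 2-fold in either direction. Sytl4 met the rule only through Ngn3KO, the genotype where it was higher, so it could not have been counted as lower.

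Those 3 differences rested on 3 Ngn3KO cells. The cells numbered 53, 28 and 86 in the titles held 94.04% of the Ins1 reads of their group, 95.6% of the Ins2 reads and 95.6% of the Sytl4 reads, against 4.52% of all its reads. Without them, a choice made after the data were seen, Ins1 was at 48.8 CPM in Ngn3KO with a log2 ratio of -0.96, and Ins2 at 186.02 CPM with a log2 ratio of 0.28. Sytl4 was at 0.894 CPM, with a log2 ratio of -1.30, and no longer counted as measured. Slc30a8 stayed at 0.18 and Gad1 at -0.45. Of the Ins1 reads left in the comparison, 44.7% of those of Neurod1OE lay in its cell 42. With that cell left out as well, also chosen after the data were seen, the Ins1 level was 53.2 CPM in Neurod1OE and 48.8 CPM in Ngn3KO. The log2 ratio was then -0.12 for Ins1 and 0.36 for Ins2. With only the 3 cells left out, none of the 5 genes was both measured and at least 2-fold apart. Of all measured genes 2.32% were at least 2-fold apart, 0.71% higher and 1.61% lower. The 3 cells are all female and Gm12338-positive, and all 3 were among the Ngn3KO cells with the most reads, between 781013 and 1507050. When each cell was weighted equally the log2 ratios were 0.97 for Ins1, 3.52 for Ins2 and 0.40 for Sytl4.

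Within the Gm12338-positive cells, 51 from Neurod1OE and all but 97 of those from Ngn3KO, the log2 ratio was 3.33 for Ins1, 4.87 for Ins2 and 2.33 for Sytl4. Again 3 of 5 genes were at least 2-fold apart, where 7.75% of measured genes were, 3.37% higher and 4.37% lower. Sytl4 was again measured only through Ngn3KO. Within the Gm12338-negative cells, 66 and 97, the values were -0.082, 0.76 and -1.01, with Sytl4 not measured there. None of the 5 was both measured and past 2-fold. Of all measured genes 4.92% were past 2-fold, 1.43% higher and 3.5% lower. Slc30a8 kept log2 ratios of 0.32 and 0.05 in the 2 subsets, and Gad1 -0.39 and -0.15. Among female cells only, Ins1 was at 3.81, Ins2 at 6.11 and Sytl4 at 3.28, while Gad1 was at 0.55.

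**Figure D2:**
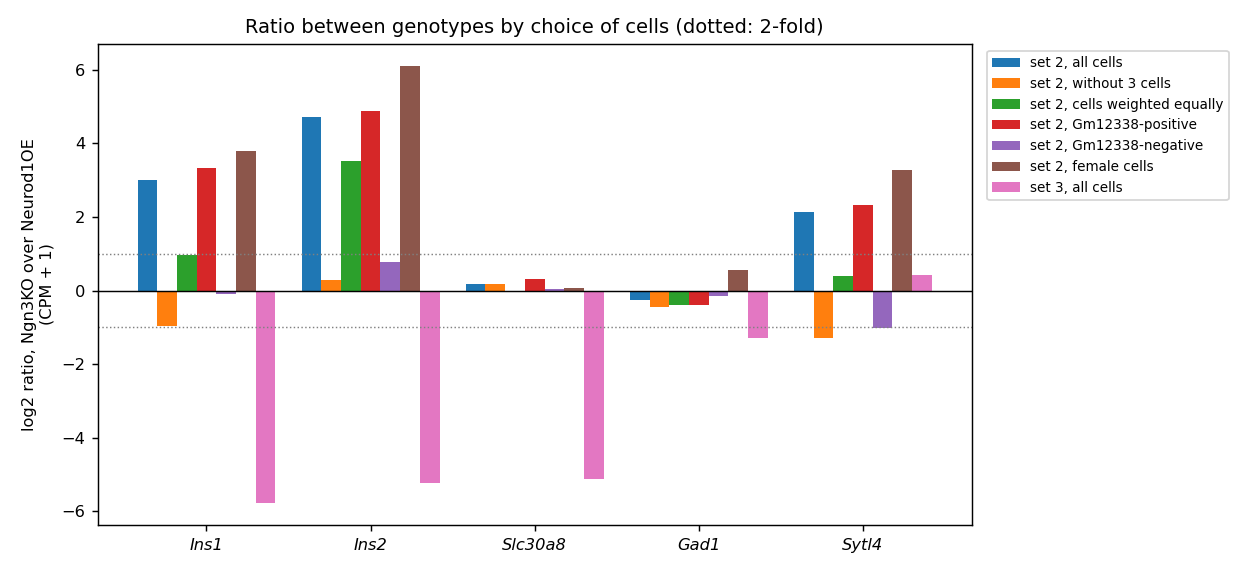
Bars give the log2 ratio of Ngn3KO over Neurod1OE, on CPM + 1, for each gene and choice of cells, with dotted lines at 2-fold. Ins1, Ins2 and Sytl4 are above the 2-fold line with all set 2 cells and within it, or lower for Sytl4 at -1.30, without 3 cells. The Slc30a8 bars lie between the lines in set 2, and the bars of Ins1, Ins2 and Slc30a8 reach below -5 in set 3.

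In set 3 the insulin genes ran the other way. Neurod1OE cells had 58.9 CPM of Ins1 in sum and the cells labelled Ngn3KO 0.0906 CPM, which is 2 reads, and Ins2 was at 137.2 and 2.67 CPM. Their log2 ratios were -5.78 and -5.23. Slc30a8 was at 33.7 CPM in Neurod1OE and had no read in Ngn3KO, a log2 ratio of -5.12. A floor of 3 reads over the whole group, 0.136 CPM, would put it 248-fold lower. The Poisson interval for no read reaches 0.167 CPM, above that floor, so 248-fold is not a lower bound. These 3 genes were measured only through Neurod1OE, so none could have been counted as higher. Each was lower by 2-fold or more, but so were 31.8% of 10478 measured genes. Of all measured genes 5.96% were higher and 37.8% past 2-fold in either direction, and the median over all measured genes was -0.57. TMM scaling moved that median by 0.51 and DESeq2 size factors by 0.62, after which 18.4% and 16.4% of measured genes were lower and 13.1% and 15.1% higher, and the 3 genes stayed at least 2-fold lower, with TMM at -5.58 for Ins1, -4.82 for Ins2 and -4.95 for Slc30a8. Gad1, at 1.47 CPM and no read, and Sytl4, at 3.80 and 5.48 CPM with a log2 ratio of 0.43, were not measured there. The acinar and endocrine markers given above moved with this comparison, and their part in it was not tested. All 30 cells labelled Ngn3KO were also male and Gm12338-negative, and the part of either was not tested. Among male cells only, Ins1, Ins2 and Slc30a8 stayed at least 2-fold lower. Among the 95 Neurod1OE cells, 1 cell, number 78, held 90.1% of the Ins2 reads, 37.1% of the Ins1 reads and 32.3% of the Slc30a8 reads. Leaving out each gene's top cell in either genotype moved the log2 ratio of Ins2 to -3.05 and of Ins1 to -5.20.

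How far a gene's reads were gathered in few cells separated the 5 genes. For a typical measured gene in set 2 the top cell held 8.30% of the reads of Neurod1OE and 5.65% of those of Ngn3KO. Slc30a8 was near that level, with 8.35% and 4.91%, and 41.03% and 39.02% of the cells, 48 and 80 in number, were needed to reach 90% of its reads. Gcg needed 52.99% and 58.05% of the cells. For Ins2 in Neurod1OE the top cell, number 13, held 29.7%, and 43 cells made up 90%, whereas in Ngn3KO 3 cells made up 90%. Ins1 was more gathered in Neurod1OE: the top cell, number 42, held 44.7% and 23 cells made up 90%. A share of that size or larger was found for 0.849% of measured genes in Neurod1OE, and the 50.6% of the top Ins1 cell in Ngn3KO was matched by 0.2198%. Shares of reads also depend on the depth of the cell: with every cell weighted equally, the top cell of Neurod1OE had 57.97% for Ins1 and 13.6% for Ins2, and that of Ngn3KO 38.4% and 43.6%.

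For Gad1, cell 27 alone held 46.7% of the reads of Neurod1OE, while in Ngn3KO the top cell held 9.23% and 33 cells made up 90%. With cells weighted equally these shares were 20.02% and 8.87%. The share was reached by 0.719% of measured genes in the former and 21.1% in the latter. Cell 27 was also the top cell for Slc30a8 there. Sytl4 reads lay in very few cells of either genotype: the top cell held 44.2% and 53.6% (45.04% and 40.7% with cells weighted equally), and 9 and 3 cells made up 90%.

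**Figure D3:**
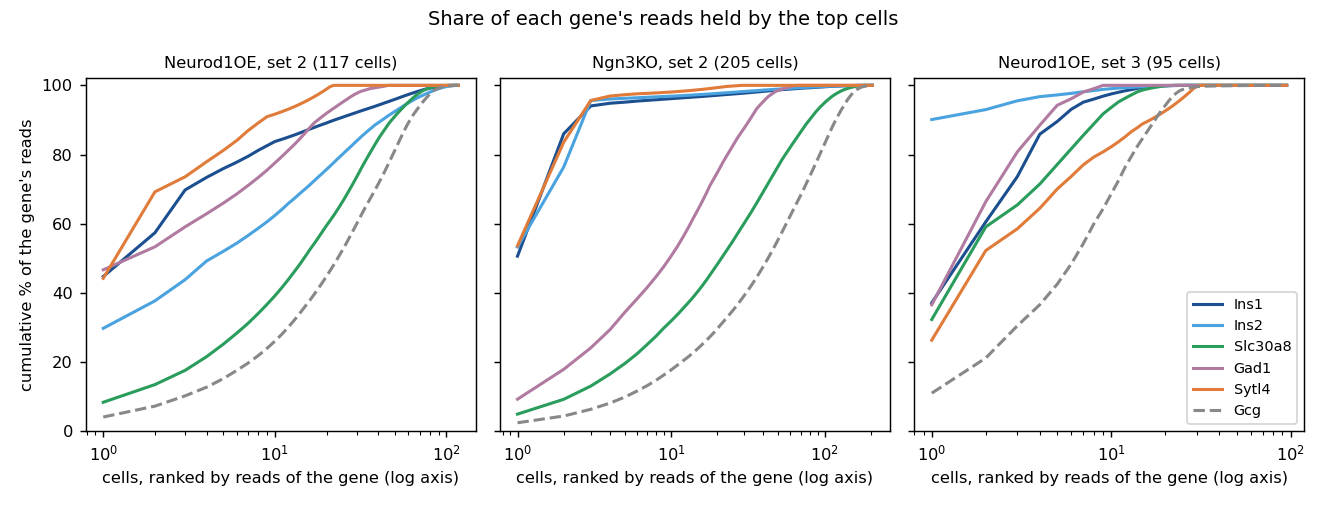
Cells are ranked by their reads of a gene (log axis) and the line gives the cumulative percentage of that gene's reads, in 3 of the 4 groups. In Ngn3KO of set 2 the lines of Ins1, Ins2 and Sytl4 pass 90% at the third cell, whereas Slc30a8 needs 80 cells.

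Cells with at least 1000 CPM of insulin are called insulin-high here. There were 5 in Neurod1OE (4.27%, interval 1.402 to 9.69%) and 10 in Ngn3KO (4.88%, 2.36 to 8.79%) of set 2, 1 of 95 in Neurod1OE of set 3, and 0 of 30 in Ngn3KO of set 3. The shares in set 2 lay within each other's intervals. The limit cuts through a continuous range: the nearest cells below it had 947, 920.4 and 906 CPM, and the nearest above had 1060 and 1153 CPM. At 500 CPM there were 7 Neurod1OE and 34 Ngn3KO cells (5.98% and 16.6%), so the genotypes were further apart in the range just below the limit.

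The 3 Ngn3KO cells stood far above all others. Cell 53 had 16769 CPM of Ins1 and 130736 CPM of Ins2, cell 28 had 6410 and 79387 CPM, and cell 86 had 20895 and 49442 CPM. Insulin made up 14.7%, 8.58% and 7.03% of their reads. The next Ngn3KO cell, number 5, had 2968 CPM of insulin, and the highest Neurod1OE cell, number 42, had 11187 CPM, of which 9174 CPM was Ins1.

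Other genes of the beta cell were high in the same 3 cells. Nnat, known to help signal peptide handling of preproinsulin, was at 23133 to 36377 CPM against a median of 25.3 CPM in the other 319 cells of set 2, and the amylin gene Iapp at 20563 to 23041 CPM against 1591 CPM. The beta-cell factors Pdx1, at 111.2 to 186.5 CPM, and Nkx6-1, at 238 to 491 CPM, were above the 90th percentile of the other cells, 57.7 and 93.7 CPM, in all 3. The glucose transporter gene Slc2a2 was at 7.68 to 451 CPM, and the other cells had a 90th percentile of 1.21 CPM. Mafa, the factor of mature beta cells, had reads in cell 86 alone, at 41.1 CPM, and in no other cell of set 2. The alpha-cell factor Irx2 was below 10 CPM in all 3, against a median of 190.9 CPM.

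The other members were not equally high there. Sytl4 reached 354, 239 and 552 CPM in cells 53, 28 and 86, the 3 highest values of the group. Gad1 had 39.6, 209 and 65.7 CPM. Slc30a8 was at 486 CPM in cell 53 but at 7.68 and 7.96 CPM in the others, well below the median of 73.1 CPM, so 2 of the 3 cells with the most insulin were among the lower cells for the zinc transporter.

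The other insulin-high cells were mixed. Over all 16 such cells, the 3 included, 11 had more Gcg than insulin. Slc30a8 was at 100 CPM or more in 8 of 16, Sytl4 at 10 CPM or more in 7, and Gad1 at 10 CPM or more in 4. Ins2 exceeded Ins1 in 13 of 16, and the exceptions were the Neurod1OE cells 42, 48 and 68 of set 2. These last had 9174, 1849 and 1400 CPM of Ins1 against 2013, 65.97 and 62.7 CPM of Ins2, with Nnat at 9562, 6511 and 2392 CPM. All 3 had more of the hormone gene Pyy than of insulin, at 70249, 17052 and 42319 CPM of Pyy. More Pyy than insulin was not particular to them. Neurod1OE cells of set 2 below 1000 CPM of insulin had medians of 7049 CPM of Pyy and 71.9 CPM of insulin. Cell 68 also had 19368 CPM of Ppy, the pancreatic polypeptide gene. Like the 3 Ngn3KO cells, cells 42, 48 and 68 were below 10 CPM of Irx2, with Gcg at 3062, 2895 and 1390.4 CPM. Cells 42 and 48 had 102.06 and 293 CPM of Pdx1. The Neurod1OE cells 13 and 82 had instead 1581 and 1084 CPM of Ins2 with 34010 and 34591 CPM of Gcg. Cell 48 was the Neurod1OE cell with the most Sytl4, 252 CPM.

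**Figure D4:**
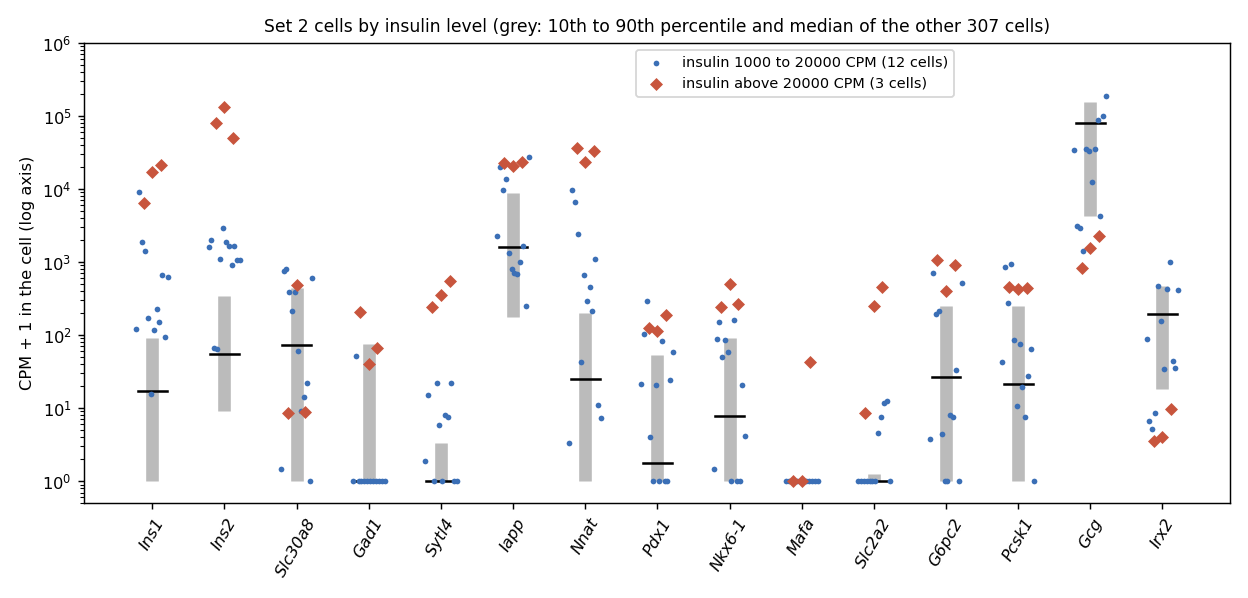
CPM + 1 (log axis) of members, beta-cell and alpha-cell genes in single set 2 cells: diamonds are the 3 Ngn3KO cells above 20000 CPM of insulin, dots the 12 other insulin-high cells, and grey bars the 10th to 90th percentile of all other cells with their median. The diamonds lie above the bar for Iapp, Nnat, Pdx1 and Nkx6-1, and below it for Gcg and Irx2, and 2 of the 3 lie low for Slc30a8.

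Insulin and glucagon transcripts were found in the same cells. Of the 16 insulin-high cells 15 also had 1000 CPM of Gcg. In set 2 this was 5 of 5 Neurod1OE and 9 of 10 Ngn3KO cells, but Gcg was at that level in 96.4% and 98.97% of the remaining cells as well, so joint presence there was no more frequent than Gcg itself. In the genotypes as a whole the level of Gcg was lower in them: its median was 3062 CPM in the insulin-high and 72935 CPM in the other Neurod1OE cells, and 22700.2 and 84273 CPM in Ngn3KO. The Gm12338-negative Ngn3KO cells ran the other way, where the 2 insulin-high cells had 97961 and 186646 CPM of Gcg against a median of 80091 CPM. The 3 Ngn3KO cells with the most insulin had 1556, 816 and 2299 CPM of Gcg, the lowest of the 10. Only 6 of 447 cells had more insulin than Gcg.

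In set 3 most cells were below 1000 CPM of Gcg, so the presence of the members could be set against that level. Of the 95 Neurod1OE cells, 32 had at least 1000 CPM of Gcg. Insulin at 10 CPM or more was in 56.2% of these (interval 37.7 to 73.6%) and in 6.35% (1.76 to 15.47%) of the 63 others. Slc30a8 followed the same line, with 53.1% (34.7 to 70.9%) against 3.17% (0.387 to 11.002%), and Gad1 with 18.8% against 1.59%. Sytl4 did not, with 3.12% against 11.1%. The intervals did not overlap for insulin and Slc30a8 and did for the other pair, over cells of 1 sample. Cell 78, the one insulin-high cell, had 124370 CPM of Gcg beside 8326 CPM of insulin and 623 CPM of Slc30a8, with 22233 CPM of Iapp.

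**Figure D5:**
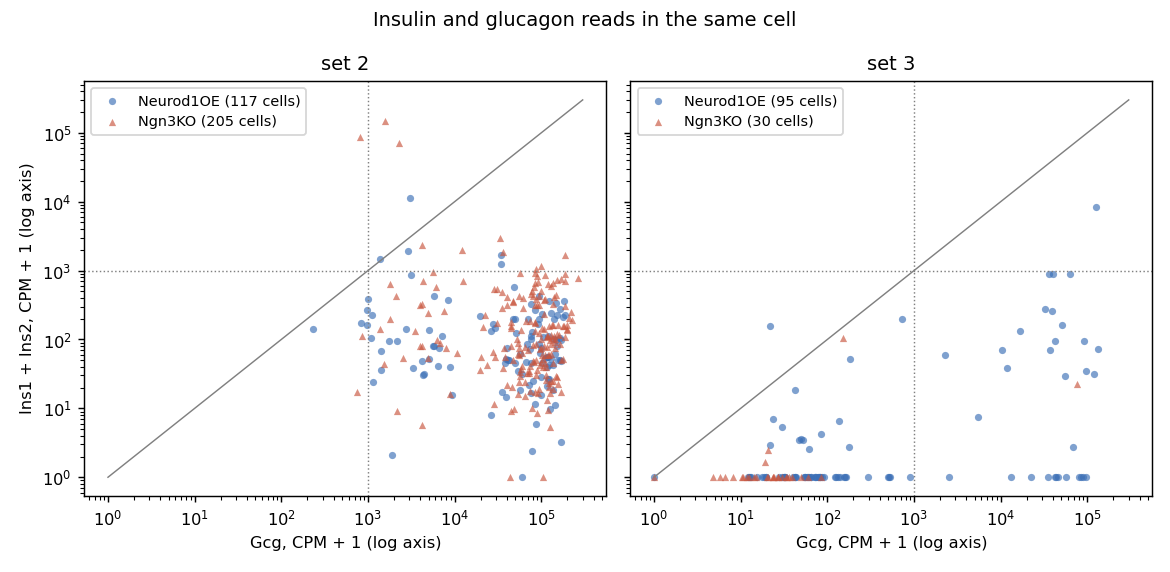
Each point is a cell, with Gcg on the horizontal and Ins1 + Ins2 on the vertical axis, both as CPM + 1 on log axes, circles for Neurod1OE and triangles for Ngn3KO. Dotted lines mark 1000 CPM and the diagonal marks equal levels, above which 6 of 447 cells lie. In set 2 nearly all cells lie to the right of the Gcg line, and in set 3 insulin is found mainly in cells right of it.

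Within set 2, Slc30a8 went with high Gcg. All 55 Neurod1OE cells with 100 CPM of Slc30a8 had 1000 CPM of Gcg, with a median of 91225 CPM of Gcg against 38591 CPM in the other cells, and in Ngn3KO it was 91 of 91 cells, with medians of 106045 and 60629.6 CPM. Among the cells below 100 CPM of Slc30a8, 93.5% and 97.4% had 1000 CPM of Gcg. For Gad1 at 10 CPM or more, 33 of 33 and 48 of 49 cells were Gcg-high, against 95.2% and 98.7% of the rest. The Gcg medians of these cells and the rest were 91225 and 63283 CPM in Neurod1OE and nearly level in Ngn3KO, at 85537 and 82874 CPM. At 100 CPM of Gad1 the Neurod1OE order turned, with 66922 against 68811 CPM. Sytl4 went the other way: its 7 Neurod1OE and 6 Ngn3KO cells at 10 CPM or more had Gcg medians of 8790 and 3252 CPM, against 72935 and 84273 CPM in the rest. Those 6 Ngn3KO cells include cells 53, 28 and 86, which had the most insulin.

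The members overlapped one another to different degrees. In set 2, 93.2% of Neurod1OE and 93.9% of Ngn3KO cells with 10 CPM of Ins1 also had 10 CPM of Ins2, and these were 68.3% and 67.4% of the cells with Ins2. All 6 Ngn3KO cells with Sytl4, cells 53, 28 and 86 among them, had both insulin genes, while only 2 of them had Slc30a8. Over all Ngn3KO cells of set 2 the shares were 64.4% for Ins1, 89.8% for Ins2 and 76.6% for Slc30a8. All 5 genes together were at 10 CPM in 2 Neurod1OE cells and 1 Ngn3KO cell of set 2 and in no cell of set 3.

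The low insulin of set 2 was also set against Gm12338. Its median was 140.6 CPM in Gm12338-positive and 49.6 CPM in Gm12338-negative Neurod1OE cells, and 163.4 and 59.9 CPM in Ngn3KO. Most of the difference was in Ins2, with medians of 97.8 and 30.1 CPM in Neurod1OE and 147.7 and 36.1 CPM in Ngn3KO, whereas Ins1 was at 18.1 and 15.1 CPM, and 23.1 and 16.4 CPM. Nnat was higher in the same subsets, at 35.7 against 2.39 CPM and 92.95 against 4.19 CPM. Slc30a8 was lower in the positive cells, 40.6 against 107.7 CPM and 48.9 against 87.6 CPM.

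Among Ngn3KO cells below 1000 CPM, the share of Ins2 in the insulin reads was 84.2% in Gm12338-positive and 61.6% in Gm12338-negative cells, and in the 3 top cells it was 84.04%. For every 100 insulin reads the 3 top cells had 29.6 Nnat reads, the positive cells below 1000 CPM 61.9 and the negative ones 74.5. Whether reads of the 3 cells contributed to the low values of other wells was not tested. In Neurod1OE, which has no cell above 11187 CPM, the Ins2 share below 1000 CPM was 87.7% in positive and 58.6% in negative cells.

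Genes of the same pathways were read against the members, and against the 0.859% higher and 1.67% lower among all measured genes of set 2. Of 18 genes for hormone making and granules, all measured, Nnat alone was at least 2-fold higher in Ngn3KO of set 2 (154.9 and 1485 CPM), none was lower, and the median log2 ratio was 0.08, against -0.07 over all measured genes. Without the 3 cells Nnat was at -0.28 and none of the 18 was past 2-fold. The most abundant were Iapp at 3319 and 3608 CPM, the processing enzymes Cpe at 2369.5 and 2338 CPM, Pcsk2 at 2113 and 2090.3 CPM, and Pam at 1687 and 1881 CPM. All 4 stayed within 2-fold.

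None of the 14 measured exocytosis genes was past 2-fold, with a median log2 ratio of 0.05. Rab27a, the small GTPase that granuphilin binds, was at 232 and 263 CPM, Snap25 at 269 and 366 CPM, Syt7, a calcium sensor, at 218 and 222 CPM, and Rab3d at 181.7 and 171.2 CPM. So these 4 genes were present in the sums of both genotypes, while Sytl4 itself was at 0 in most cells. None of 6 measured GABA genes was past 2-fold either (median 0.23). Gad2, the second GABA-making enzyme, at 3.63 and 0.627 CPM, and the vesicular GABA transporter Slc32a1, at 0 and 0.0251 CPM, were not measured. The taurine and GABA carrier Slc6a6 was at 132.4 and 120.5 CPM, and the GABA-degrading enzymes Abat and Aldh5a1 were at 30.7 and 41.9 CPM, and 40.98 and 46.8 CPM. Gabbr1, a receptor subunit, was at 15.7 and 26.98 CPM.

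Of 8 measured zinc genes, the metallothioneins Mt1 (51.3 and 4.38 CPM) and Mt2 (45.4 and 4.76 CPM) were at least 2-fold lower in Ngn3KO of set 2, and the median was -0.21. The other zinc transporters named by level, Slc39a6 at 78.6 and 100.04 CPM, Slc30a9 at 70.4 and 62.1 CPM and Slc30a1 at 32.1 and 27.1 CPM, stayed within 2-fold. Of 8 measured genes of glucose sensing Slc2a2, measured only through Ngn3KO, was higher (0.278 and 14.2 CPM), and the median was -0.02. Without the 3 top cells Slc2a2 was no longer measured and none of 7 was past 2-fold. The channel subunit gene Abcc8 was at 481 and 450 CPM, G6pc2 at 78.1 and 115.3 CPM and the calcium channel gene Cacna1d at 66.4 and 75.4 CPM. None of 10 measured regulators of the insulin genes was past 2-fold (median -0.01), among them Isl1 at 844 and 750 CPM, Pax6 at 664 and 615 CPM and Neurod1 at 332 and 292 CPM.

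In set 3 the same lists were mostly lower in the cells labelled Ngn3KO, beside the 31.8% of all measured genes given above. The list medians below are without TMM scaling, which moved the median over all measured genes by 0.51. This held for 11 of 18 granule genes (median -2.63), 10 of 14 exocytosis genes (-2.18), 4 of 6 GABA genes (-1.99), 6 of 6 genes of glucose sensing (-3.31) and 9 of 12 regulators (-2.26). The zinc genes did not follow, with 2 lower, 2 higher and a median of 0.48: Mt1 was at 352 and 2095 CPM and Mt2 at 131.2 and 1168 CPM, opposite to set 2. Ero1lb, Rab27b and Sytl1 were higher as well, at 25.6 and 108.98 CPM, 6.86 and 19.4 CPM, and 2.78 and 16.6 CPM. Rab27b and Sytl1 were measured there only through Ngn3KO.

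The genes whose log2 level was most like a member's over the 322 cells of set 2 were found among 12229 candidates, with Pearson's r given as a description of cells that share libraries and depth. For Ins1 they were Ins2 (r = 0.57, and 0.64 over the cells of set 3), P2ry1 (0.43 and -0.06), Npy (0.42 and 0.23), Sytl4 (0.41 and 0.01) and Nnat (0.34 and 0.00). Ins2 had the same 5 partners with Ins1 in place of itself, and Npy, a neuropeptide gene, came second at 0.56 and 0.37. Leaving out the 3 top cells lowered the Ins1 and Ins2 pair to 0.50 and the Ins2 and Sytl4 pair from 0.42 to 0.25.

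Slc30a8 had other company: Pcsk2, the convertase that makes glucagon (0.43 and 0.49), Gcg itself (0.35 and 0.62), Pak3 (0.34 and 0.45) and G6pc2 (0.33 and 0.45), and these values were nearly the same without the 3 cells (0.44 for Pcsk2). For Gad1 no gene came near these values, and Psme2b, Fam81a and Hspa12a were each at 0.21. Sytl4 was most like P2ry1 (0.51), Spock2 (0.48), Adra2a (0.47), Itpkb (0.45) and Tifa (0.45). All 5 lay between 0.22 and 0.34 without the 3 cells and between -0.13 and 0.15 in set 3.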

How the data were processed

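Single GFP+ cells of E15.5 mouse pancreas were measured by Smart-seq3, and the authors deposited unnormalized counts of reads for every gene in every cell, with a matrix for each title set. Per the submitters' processing notes, the authors used Trimmomatic 0.39, HISAT2 2.1.0, featureCounts 2.0.0 and the build mm10. The annotation, strand setting and any use of molecular identifiers are not given in the sources used here. Counts were taken as reads, which are not independent molecules.

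The 92 spike-in rows were left out. Sums over all cells of a genotype in a set were scaled to counts per 1000000 (CPM), and ratios are log2 of CPM + 1. The limits for a measured gene were 10 CPM and a read in 10% of cells, both in the same genotype, and a call needed 2-fold or more. A measured gene below 10 CPM in 1 genotype could therefore be called only as lower in that genotype. Cells were used as deposited, with no filter and no doublet caller, 1 cell being sorted per well. The title numbers name cells and pair nothing. Each genotype is 1 sample per set, so p-values were not computed. Intervals are 95% Clopper-Pearson for shares and Poisson for sums, and with the floor of 3 counts for a count of 0 they cover counting error only. Depth ran from 25769 to 2788066 reads per cell, with sex called from Xist and Y-linked reads.

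The members, the gene lists and the subsets were chosen with earlier results of these data known. Beside the members, the text names the 4 list genes highest in set 2, list genes past 2-fold, and cells of 1000 CPM of insulin or more. It also names the 5 genes most like each member over cells, among genes with at least 10 CPM in at least 10 set 2 cells. The list genes Gad2, Slc32a1, Ero1lb, Pdx1, Nkx6-1, Mafa, Irx2, Pyy and Ppy in the single-cell account were named after their values were seen. Some genes that these rules name are not reported here. Gene models are GENCODE M21 and promoters RefSeq, of which Ins1, Gad1 and Sytl4 were matched. Alternatives were edgeR 4.0.16 TMM factors, DESeq2 1.42.0 size factors, other limits, cell weights and subsets, and thinning. Work used Python 3.11.15, numpy 2.4.6, scipy 1.17.1, pandas 2.3.3, matplotlib 3.10.9 and R 4.3.3. The ratio step was tested on simulated data, where each gene varied independently from cell to cell. That setting does not cover genes with most of their reads in few cells, such as Ins1, Ins2 and Sytl4.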

Additional observations from a re-analysis of the deposited data

Results flagged for a closer look

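The insulin genes had opposite directions in the 2 title sets. On the log2 scale Ngn3KO over Neurod1OE was at 3.01 in set 2 and -5.78 in set 3 for Ins1, and 4.71 and -5.23 for Ins2. Each is flagged because the same contrast has opposite signs in the sets, and the difference was not tested, since each genotype is 1 sample per set. Beside it, the median cell labelled Ngn3KO in set 3 had 9999 CPM of Cpa1 and 21.2 CPM of Gcg, against 0 and 84098 CPM in set 2. The cells labelled Ngn3KO were all called male in set 3, and none was in set 2. In set 2 the direction of Ins1 rested on 3 cells, without which it was -0.96, and -0.12 when the Neurod1OE cell with the most insulin was left out too. Ins2 was at 0.28 and 0.36.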

How the results depend on the processing

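No paired analysis was possible because the title numbers name single cells, the labels pair no samples and the results come from no test. The count of members at least 2-fold apart in set 2, 3 with all cells, was 1 with cells weighted equally, 1 without the 2% of cells with the most reads, and 0 without cells of 1000 CPM of insulin, in Gm12338-negative cells, and without the 3 cells with the most insulin, alone or with the Neurod1OE cell with the most insulin. It was 2 without each gene's top cell and 3 under the other 8 settings. Sytl4 reversed to -0.73 without insulin-high cells, -0.12 without the 2% with the most reads, -1.01 in Gm12338-negative cells, -1.30 without the 3 cells and -1.28 without all 4, and Ins1 to -0.082, -0.96 and -0.12 in the last 3 settings. Over 14 alternatives Ins2 in set 2 ran from 0.28 to 6.11 and Slc30a8 from -0.02 to 0.32, while in set 3 Ins1, Ins2 and Slc30a8 stayed at least 2-fold lower under all 10. TMM scaling moved the log2 ratios of set 2 to 3.07 for Ins1 and 4.77 for Ins2. The insulin-high share was 0.855% of Neurod1OE and 1.46% of Ngn3KO cells of set 2 at 5000 CPM, 16.6% of Ngn3KO cells at 500 CPM, and 2.06% in Gm12338-negative Ngn3KO cells. The share of insulin-high cells with Gcg was 40% in Neurod1OE at a Gcg limit of 10000 CPM and 100% in Ngn3KO at 100 CPM. With cells weighted equally, 13 of 18 top-cell shares moved. Leaving out the 3 or 4 cells and thinning were chosen after seeing the data. Unless named above, the cause was not tested. At the median depth of set 2 Ngn3KO cells, 344128 reads, 10 CPM is a few reads, so presence of Gad1 and Sytl4 in single cells is uncertain.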
